A study of Homo sapiens with 16 samples.

Results

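The TOP2A cleavage cluster regions of chromosome 22 numbered 15027 of 1469949 over 5 lists from K562 cells, and 199 of them had their midpoint in the BCR stretch, from 22 to 23.5 Mb of hg38 chr22. The stretch was set by its coordinates, with no measured value, and runs from the lambda immunoglobulin locus to just past the BCR gene. K562 is an established chronic myeloid leukaemia line. A cleavage cluster region is a short interval where DNA released from immunocaptured TOP2A piled up. The lists held cells exposed for 1 h to 25 µM etoposide, 50 µM genistein or 2 µM mitoxantrone, cells exposed for 4 h to 8 µM p-benzoquinone, and cells given DMSO alone. All 5 shared a final DMSO concentration of 0.05%, and the labels give the DMSO cells 1 or 4 h without saying which library had which. The labels name 16 libraries, 2 of them input DNA. The sample descriptions tie 3 amplified etoposide, 2 genistein, 2 p-benzoquinone and 3 DMSO libraries to their lists, while the mitoxantrone list was tied to its 1 library by the treatment name alone. Each treatment is 1 pooled list, so a region has no replicate value and no p-value was computed between treatments. Library depth is unknown, since the lists give called regions and no reads.

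TOP2A, the alpha form of topoisomerase II, opens a duplex by a paired strand cut, moves a second duplex through and reseals it. Poisons such as etoposide, genistein and mitoxantrone hold the enzyme on the cut DNA, and p-benzoquinone, a benzene metabolite, modifies the enzyme covalently. BCR encodes a signalling protein whose fusion to the kinase ABL1 drives chronic myeloid leukaemia. In K562 the fusion and DNA next to it are known to be present in many copies, which is why the stretch is called an amplicon. Copy number itself was not measured here. The only measure of input DNA was the input value that the authors give for each region of the mitoxantrone list.

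Sequence could be shown where a region met the start of a gene, as RefSeq lists it on GRCh38.p14 from 250 bases before the start to 50 bases after it. Of 18 such genes in the stretch, only VPREB1 and LL22NC03-102D1.18 had a region of any list in that window, and RGL4 lies between BCR and 24 Mb. Capitals mark the bases inside the region. VPREB1 encodes a part of the surrogate light chain of B-cell precursors, and its window, chr22:22244536-22244835 on the plus strand, held a 66 bp p-benzoquinone region with a value of 2.16. RGL4 encodes a Ral guanine nucleotide exchange factor of the RALGDS family, and its window, chr22:23690763-23691062 on the plus strand, held 190 bp of a p-benzoquinone region with a value of 13.27. LL22NC03-102D1.18 lies in the lambda locus, and its window, chr22:22711545-22711844 on the minus strand, held 83 bp of a DMSO region with a value of 2.54. The GC content inside the regions was 56.1% for VPREB1, 52.6% for RGL4 and 57.8% for LL22NC03-102D1.18, against 62.0%, 54.7% and 55.3% over the whole windows.
VPREB1: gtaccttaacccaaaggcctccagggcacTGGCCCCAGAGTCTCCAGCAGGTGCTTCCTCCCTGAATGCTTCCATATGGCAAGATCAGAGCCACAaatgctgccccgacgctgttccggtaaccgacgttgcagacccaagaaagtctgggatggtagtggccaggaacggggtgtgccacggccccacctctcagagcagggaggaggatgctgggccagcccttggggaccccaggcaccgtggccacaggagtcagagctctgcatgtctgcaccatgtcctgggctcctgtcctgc
RGL4: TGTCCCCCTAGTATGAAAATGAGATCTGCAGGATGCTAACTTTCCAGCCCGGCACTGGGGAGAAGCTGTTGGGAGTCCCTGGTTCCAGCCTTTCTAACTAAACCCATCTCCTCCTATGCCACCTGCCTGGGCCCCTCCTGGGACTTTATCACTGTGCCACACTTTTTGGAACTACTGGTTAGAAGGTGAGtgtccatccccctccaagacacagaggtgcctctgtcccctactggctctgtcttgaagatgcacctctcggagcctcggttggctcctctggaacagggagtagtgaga
LL22NC03-102D1.18: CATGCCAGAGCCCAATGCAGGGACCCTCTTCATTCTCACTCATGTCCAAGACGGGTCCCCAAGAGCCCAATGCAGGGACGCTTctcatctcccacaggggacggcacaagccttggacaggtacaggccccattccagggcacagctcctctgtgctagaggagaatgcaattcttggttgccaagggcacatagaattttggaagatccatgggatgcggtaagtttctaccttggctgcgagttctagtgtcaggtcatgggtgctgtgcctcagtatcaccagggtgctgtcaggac

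Starts of genes with a region were rare on chromosome 22 as a whole. Of 527 genes with a listed start, 10 had an etoposide region there, 24 a genistein region, 9 a mitoxantrone region, 37 a p-benzoquinone region and 30 a DMSO region. Of the 103 such genes between 18.75 and 24 Mb, the counts were 1 for etoposide, 0 for genistein, 0 for mitoxantrone, 11 for p-benzoquinone and 3 for DMSO.

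The chromosome as a whole carried fewer regions per Mb than the genome mean in all 5 lists. Chromosome 22 held 1910 etoposide, 3602 genistein, 1846 mitoxantrone, 4262 p-benzoquinone and 3407 DMSO regions. Its density was 0.855 of the genome mean for etoposide, 0.709 for genistein, 0.744 for mitoxantrone, 0.970 for p-benzoquinone and 0.898 for DMSO. Among 23 chromosomes ranked from the highest density, it came 22 for etoposide, 23 for genistein, 22 for mitoxantrone, 16 for p-benzoquinone and 20 for DMSO. The p-benzoquinone value was the one nearest to the mean, and it came out above the mean, at 1.00, when only values of at least 4 or covered bases were used. Among the genes with most regions over the 5 lists were TTC28, SYN3 (a synapsin), TBC1D22A and MYO18B (an unconventional myosin), all outside the low part around BCR. Their totals were 314, 308, 249 and 208. These are long genes, of 702, 551, 413 and 322 kb, with 447, 559, 603 and 647 regions per Mb over the 5 lists.

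The first question was how far density fell in the BCR stretch itself. Region density there was below the rest of chromosome 22 in every list. The 30 etoposide regions gave a density of 0.434 of that on the rest of the chromosome (95% interval 0.292 to 0.621). The 23 genistein regions gave 0.175 (0.111 to 0.262), and the 9 mitoxantrone regions gave 0.133 (0.0608 to 0.253). The p-benzoquinone and DMSO lists were the densest in the stretch in absolute terms. The 82 p-benzoquinone regions gave 0.533 of the rest of the chromosome (0.423 to 0.663), and the 55 DMSO regions gave 0.446 (0.335 to 0.582). These ratios moved by over 1.5 times with some choices. With values of at least 4 the ratio was 0.148 for etoposide and 0.211 for DMSO, and with covered bases it was 0.209 for etoposide, 0.0633 for mitoxantrone and 0.239 for DMSO. Against flanks of 1.5 Mb on both sides the etoposide ratio was 0.670, the genistein ratio 0.324, the mitoxantrone ratio 0.222 and the DMSO ratio 0.685. The flank before the stretch, of the same length, held 40 etoposide, 27 genistein, 22 mitoxantrone, 128 p-benzoquinone and 57 DMSO regions. Per callable Mb the stretch held 25.0 etoposide, 19.2 genistein, 7.50 mitoxantrone, 68.3 p-benzoquinone and 45.8 DMSO regions. The rest of chromosome 22 held 57.7 etoposide, 110 genistein, 56.3 mitoxantrone, 128 p-benzoquinone and 103 DMSO regions per callable Mb. Callable sequence means 100 kb bins with a region in at least 1 list, 1.2 Mb of the 1.5 Mb in the stretch and 32.6 Mb on the rest of the chromosome. The intervals are exact and cover counting error only, since each treatment is 1 pooled list with no replicate. Without molecular identifiers, PCR copies also cannot be told from separate molecules.

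In windows of 250 kb the whole stretch was low in the genistein and mitoxantrone lists and most of it in the other 3, and low windows also lay before it. The median window of chromosome 22 held 14 etoposide, 27 genistein, 14 mitoxantrone, 31 p-benzoquinone and 25 DMSO regions, and a window at or below 0.5 of that median was called low. Over the genome 6.13% of 11230 windows were low by this measure for etoposide, 4.35% for genistein, 5.13% for mitoxantrone, 10.6% for p-benzoquinone and 5.42% for DMSO. Of the 6 windows of the stretch, all 6 were low for genistein and for mitoxantrone, and 4 were low for etoposide, for p-benzoquinone and for DMSO. The 6 windows held 9, 4, 4, 2, 8 and 3 etoposide regions from the centromeric end to the telomeric end. They held 6, 2, 1, 2, 6 and 6 genistein regions, and 3, 2, 0, 2, 1 and 1 mitoxantrone regions. The first window, which lies in the lambda locus, was above 0.5 of the median in the etoposide, p-benzoquinone and DMSO lists and low in the genistein and mitoxantrone lists. The p-benzoquinone counts were 27, 5, 12, 14, 16 and 8, and the DMSO counts were 16, 3, 6, 14, 10 and 6. In the 1.5 Mb before the stretch, also 6 windows, 3 were low for etoposide, 6 for genistein, 5 for mitoxantrone, 1 for p-benzoquinone and 4 for DMSO. In the 1.5 Mb after it 3 were low for etoposide, 2 for genistein, 2 for mitoxantrone, 1 for p-benzoquinone and 1 for DMSO.

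**Figure D1:**
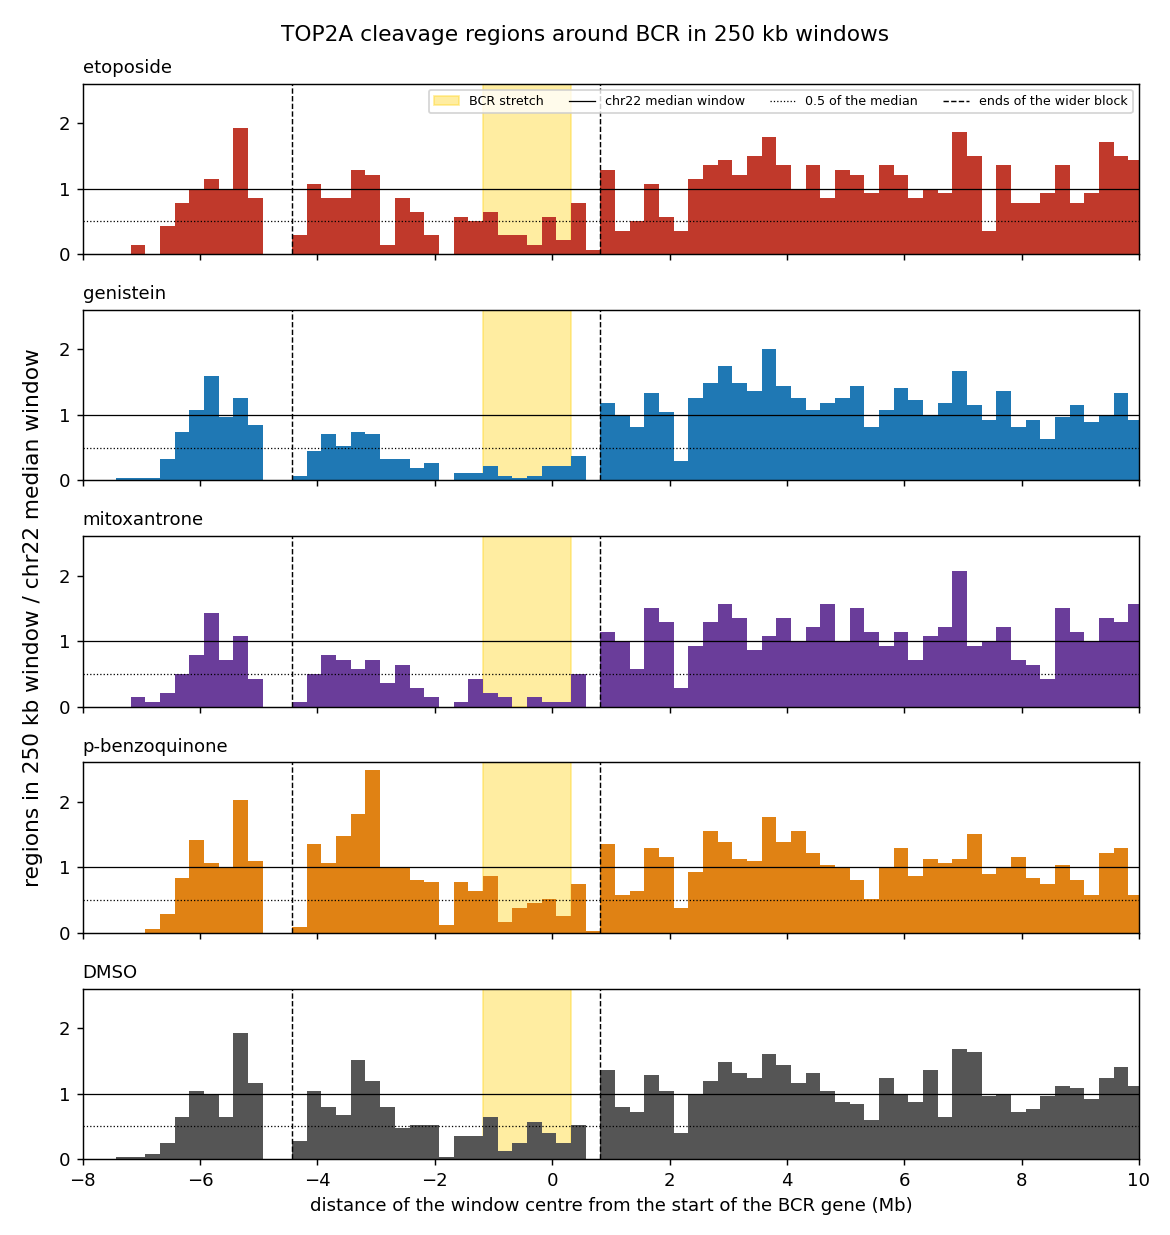
Regions per 250 kb window divided by the median window of chromosome 22 (vertical axis) against the distance of the window centre from the start of the BCR gene in Mb (horizontal axis), one panel a list. Genistein and mitoxantrone stay below their medians from 18.75 to 24 Mb, p-benzoquinone stands above its median at 19 to 20.25 Mb, and all 5 lists stand above their median in the window that starts at 24 Mb.

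The longest run of low windows that overlapped the stretch reached from 20.25 to 24 Mb for genistein and from 20.75 to 24 Mb for mitoxantrone. Those runs held 69 genistein regions in 15 windows and 29 mitoxantrone regions in 13 windows. For etoposide and p-benzoquinone the run reached from 22.25 to 23 Mb, and for DMSO from 22.25 to 22.75 Mb. The genistein run began inside RTN4R, the gene of the Nogo receptor, and the mitoxantrone run began inside PI4KA, the gene of a phosphatidylinositol 4-kinase. The shorter runs began 4.49 kb past VPREB1. Run length depended on the window grid or the threshold for etoposide, p-benzoquinone and DMSO. With the grid moved along by 0.5 of a window the runs were 1.50 Mb for etoposide and 1.75 Mb for DMSO, against 0.75 and 0.5 Mb on the grid used first. The p-benzoquinone run then lay elsewhere, from 23.375 to 23.875 Mb, with no overlap with its run on the first grid.

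In all 5 lists the window just before 24 Mb held almost no regions and the window just past it was above the median. The window from 23.75 to 24 Mb held 1 etoposide, 0 genistein, 0 mitoxantrone, 1 p-benzoquinone and 0 DMSO regions. The next window, from 24 to 24.25 Mb, held 18 etoposide, 32 genistein, 16 mitoxantrone, 42 p-benzoquinone and 34 DMSO regions, each above the chromosome's median window for that list. In the etoposide list alone the windows that start at 24.25 and 24.5 Mb were low again, with 5 and 7 regions. The window that starts at 25.25 Mb was low in all 5 lists, with 5 etoposide, 8 genistein, 4 mitoxantrone, 12 p-benzoquinone and 10 DMSO regions. CABIN1, which encodes a calcineurin-binding protein, starts just past 24 Mb, at chr22:24011304-24178628. Its 167 kb held 13 etoposide, 26 genistein, 14 mitoxantrone, 33 p-benzoquinone and 27 DMSO regions. SMARCB1, a subunit of the SWI/SNF chromatin remodeller at chr22:23786966-23838009, lies on the near side and had 0 regions in every list over 51.0 kb. Over the 107 windows from 24 Mb to the end of the chromosome, 8 were low for etoposide, 3 for genistein, 7 for mitoxantrone, 4 for p-benzoquinone and 4 for DMSO.

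A scan in 10 kb bins between 16 and 30 Mb took the single interval whose rate differed most from the bins outside it. Most of its boundaries lay at or near the edges of long intervals free of regions in every list. The interval ran from 18.16 to 24.02 Mb for genistein, with an inside rate of 0.2199 of the outside rate, and from 18.15 to 24.03 Mb for mitoxantrone, with 0.277. For p-benzoquinone and for DMSO it ran from 21.11 to 24.01 Mb, with ratios of 0.415 and 0.329. Etoposide alone had another telomeric end, with an interval from 18.12 to 25.54 Mb and a ratio of 0.483. When only 20 to 26 Mb were searched, the etoposide interval ended at 24.03 Mb. The nearest genes to the centromeric boundaries were TUBA8 (a tubulin), USP18 (a protease of the interferon response) and LRRC74B. The 4 boundaries near 24 Mb lay in CABIN1 or just before it, to the 10 kb of a bin. Intervals free of regions began at 18.159 and at 21.1091 Mb, and another ended at 24.0138 Mb. With bins empty in every list left out, DMSO ran from 20.5 to 23.7 Mb and mitoxantrone from 17.89 to 23.59 Mb. Etoposide then ran from 20.23 to 25.51 Mb and genistein from 18.13 to 24.02 Mb, and p-benzoquinone gave a dense interval. With values of at least 4 the p-benzoquinone scan returned no drop but a dense interval from 16.68 to 30 Mb, and the DMSO interval then began at 18.16 Mb.

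Between 18.75 and 24 Mb, a block chosen after its windows were seen, p-benzoquinone regions stood above their median in 5 windows before the stretch that were below the median for genistein and mitoxantrone. Of 21 windows, 10 were low for etoposide, 17 for genistein, 16 for mitoxantrone, 7 for p-benzoquinone and 10 for DMSO. From 19 to 20.25 Mb the 5 windows held 42, 33, 46, 56 and 77 p-benzoquinone regions, all above its median of 31. The same windows held 12, 19, 14, 20 and 19 genistein regions and 7, 11, 10, 8 and 10 mitoxantrone regions, all below their medians. Etoposide had 15, 12, 12, 18 and 17 regions there, and DMSO 26, 20, 17, 38 and 30. Both were above their medians, 14 and 25, in the windows that start at 19, 19.75 and 20 Mb. The highest p-benzoquinone window of the whole chromosome was the one from 20 to 20.25 Mb, with 77 regions. The genes there include DGCR8, a partner of Drosha in microRNA processing, with 1 etoposide, 1 genistein, 0 mitoxantrone, 6 p-benzoquinone and 2 DMSO regions.

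The 20 genes listed for the centromeric side of BCR had the lists in the same order of density as the stretch, with p-benzoquinone highest and mitoxantrone lowest. Of these 20, 14 held an etoposide region, 13 a genistein region, 9 a mitoxantrone region, 19 a p-benzoquinone region and 17 a DMSO region. Their density was 49.4 etoposide, 40.8 genistein, 19.3 mitoxantrone, 142 p-benzoquinone and 70.9 DMSO regions per Mb of gene body. All 451 protein-coding genes of chromosome 22 had 59.96 etoposide, 111 genistein, 59.2 mitoxantrone, 134 p-benzoquinone and 107 DMSO regions per Mb. HIRA, a histone chaperone gene of 101 kb, had 6 etoposide, 10 genistein, 4 mitoxantrone, 14 p-benzoquinone and 14 DMSO regions. PI4KA, with 151 kb, had 3 etoposide, 2 genistein, 0 mitoxantrone, 16 p-benzoquinone and 6 DMSO regions.

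In the genistein and mitoxantrone lists the leukaemia and tumour genes, the genes past BCR and the housekeeping genes came nearer than these 20 to the density of all protein-coding genes of the chromosome. The 19 leukaemia and tumour genes, BCR and SMARCB1 among them, had 56.3 etoposide, 106 genistein, 36.6 mitoxantrone, 127 p-benzoquinone and 81.2 DMSO regions per Mb. Of 20 genes listed for the telomeric side of BCR, 17 start past it, and RSPH14, GNAZ and RAB36 start before it. The 17 had 61.4 etoposide, 129 genistein, 71.5 mitoxantrone, 133 p-benzoquinone and 128 DMSO regions per Mb. The 10 housekeeping genes had 67.2 etoposide, 90.7 genistein, 80.6 mitoxantrone, 134 p-benzoquinone and 104 DMSO regions per Mb. The 7 APOBEC3 genes, which encode cytidine deaminases, held 0 etoposide, 3 genistein, 0 mitoxantrone, 3 p-benzoquinone and 5 DMSO regions in 0.0669 Mb, and their densities were below those of all genes in every list. The 13 lambda locus genes held 1 etoposide, 0 genistein, 0 mitoxantrone, 4 p-benzoquinone and 0 DMSO regions in 0.0653 Mb, and 11 of them held none in any list.

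Within the stretch the lambda locus held about the share of regions that its length gives, with the lowest share in the genistein list. The lambda locus, annotated as IGL at chr22:22026076-22922913 and encoding the variable, joining and constant segments of the lambda light chain, held 18 of the 30 etoposide regions and 10 of the 23 genistein regions. It held 6 of the 9 mitoxantrone, 49 of the 82 p-benzoquinone and 33 of the 55 DMSO regions. The locus takes up 59.8% of the stretch, beside 43.5% of its genistein regions, 66.7% of its mitoxantrone regions and 59.8% of its p-benzoquinone regions. No interval was computed for these shares, and those of genistein and mitoxantrone rest on few regions. Of the 10 protein-coding genes in the stretch, VPREB1, ZNF280B, ZNF280A, PRAME and GGTLC2 had 0 regions in every list. A gene with no region was no rarity on the chromosome, where 41.9% of 451 protein-coding genes had none for etoposide, 30.2% for genistein, 43.0% for mitoxantrone, 23.3% for p-benzoquinone and 28.2% for DMSO. PRAME, a tumour antigen gene of 11.6 kb, ZNF280B and ZNF280A, a pair of zinc finger genes, and GGTLC2 lay in 1 interval of 292 kb, chr22:22371155-22663063, with no region of any list.

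**Figure D2:**
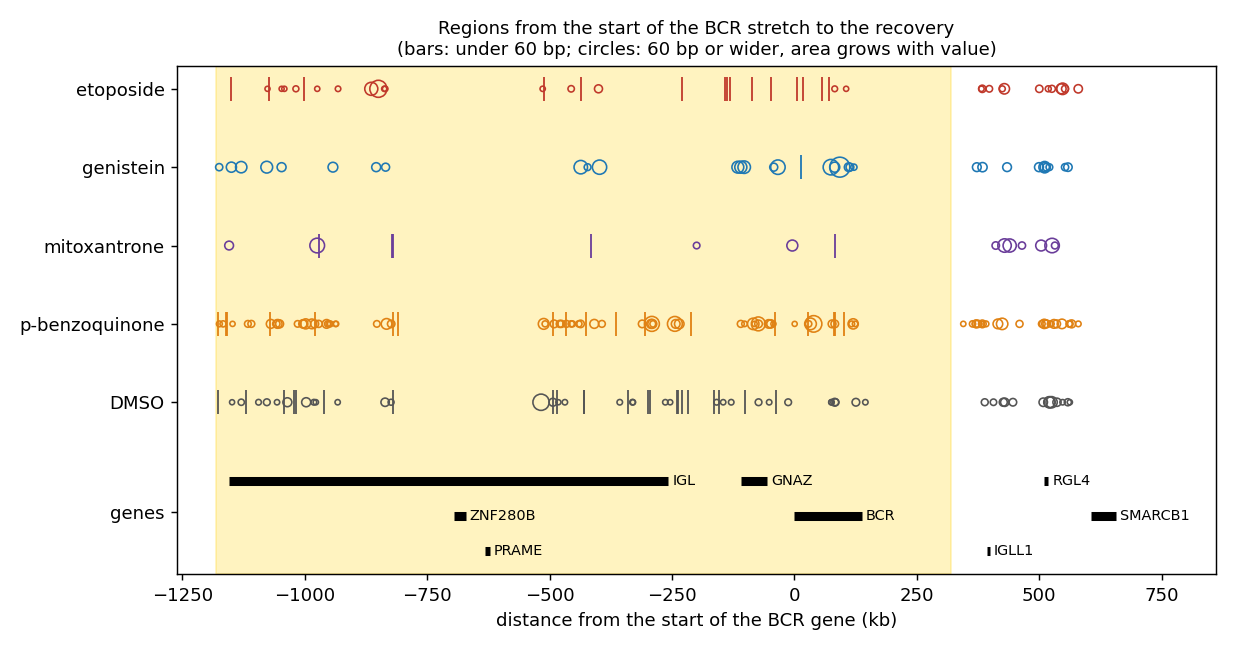
Every region from the start of the BCR stretch to 24 Mb, drawn by its distance from the start of the BCR gene in kb (horizontal axis) with one row a list and gene bodies below. Upright bars are regions narrower than 60 bp and circles are wider ones with an area that grows with the region's value; the empty interval over ZNF280B and PRAME and the one that begins just past BCR appear in all 5 rows.

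Several long intervals free of regions lay in and around the stretch. Chromosome 22 had 8 intervals of at least 200 kb between neighbouring regions, 3 of them before 16 Mb, up to 3172 kb long. Of the 5 from 16 Mb on, 4 lay between 18.15 and 24.02 Mb. Chromosomes 1 to 22 and X together had 205 such intervals among 1290442 gaps. The longest from 16 Mb on was chr22:18158961-18950085, 791 kb with DGCR6, PRODH and 4 other protein-coding genes. The one at chr22:21109107-21444845 spanned 336 kb, and the one at chr22:23760362-24013846 spanned 253 kb with 11 protein-coding genes. Those 11 include SMARCB1, MMP11 (a matrix metalloproteinase), DERL3, DDT and MIF, a cytokine gene. A further interval of 199.9 kb, chr22:23325503-23525414, began just past the telomeric end of BCR and held 0 protein-coding genes. Whether reads could be placed in these intervals was not tested.

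BCR itself, at chr22:23180509-23318037, held 6 etoposide, 7 genistein, 1 mitoxantrone, 13 p-benzoquinone and 5 DMSO regions. Per Mb of gene body this was 0.772 of the chromosome's density for etoposide, 0.478 for genistein, 0.133 for mitoxantrone, 0.750 for p-benzoquinone and 0.361 for DMSO. The exact intervals of the counts were wide, 2.20 to 13.1 for etoposide, 2.81 to 14.4 for genistein and 0.0253 to 5.57 for mitoxantrone. They were 6.92 to 22.2 for p-benzoquinone and 1.62 to 11.7 for DMSO. Only the intervals of mitoxantrone and p-benzoquinone do not meet, and these counts are not scaled to list size.

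One site in BCR, chr22:23262746-23263112, was the only place on chromosome 22 where the regions of all 5 lists had bases in common, 12 in number at chr22:23262909-23262920. Its value was 3.20 in the etoposide list, 16.26 in the genistein list, 8.10 in the mitoxantrone list, 7.96 in the p-benzoquinone list and 8.45 in the DMSO list. Values have no stated unit and each list has its own scale, so they are not compared across lists. The annotation also places FBXW4P1, a transcribed pseudogene, over the site. Whether reads from the gene it copies were placed here was not tested, so the site is uncertain. At 2 other places, in CECR2 at chr22:17472040-17473131 and in CSNK1E at chr22:38303533-38303920, regions of the 5 lists overlapped in a chain with no base common to all. When overlapping regions of the 5 lists were merged, 178 of 187 places in the stretch (95.2%) belonged to 1 list only, against 88.7% of 13326 on the chromosome. Regions of the stretch are sparser and, in every list but genistein, narrower. The shares were not adjusted for density or width, so they do not show that the lists agree less there.

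The regions of BCR with the highest values differed between lists. The genistein list had values of 73.19 at chr22:23273158-23273413 and 43.05 at chr22:23255037-23255218, against a median of 16.26 over the genistein regions of the stretch. The p-benzoquinone list had 49.06 at chr22:23219673-23219862 and 22.93 at chr22:23213372-23213535, against a median of 5.85. Etoposide regions in BCR stayed between 1.96 and 5.42, and 4 of the 6 were between 29 and 37 bp wide. DMSO regions in BCR had values between 2.07 and 8.45, and none of the 5 was narrower than 93 bp.

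RSPH14, GNAZ and RAB36 are the genes next to BCR on its centromeric side. RSPH14, a homologue of a radial spoke protein of cilia, overlaps GNAZ and RAB36 and had 2 etoposide, 5 genistein, 1 mitoxantrone, 11 p-benzoquinone and 5 DMSO regions in 121 kb. GNAZ, which encodes the alpha subunit of the G protein Gz, had 1 etoposide, 2 genistein, 0 mitoxantrone, 6 p-benzoquinone and 2 DMSO regions, all of which RSPH14 also counts. RAB36, a small GTPase gene, had 1 genistein and 1 DMSO region. IGLL5, an immunoglobulin lambda-like gene in the lambda locus, had 4 regions, all from p-benzoquinone, with values of 12.3, 39.82, 12.07 and 4.57. On chromosome 9, ABL1 had 3 etoposide, 4 genistein, 3 mitoxantrone, 7 p-benzoquinone and 7 DMSO regions in 175 kb. NUP214, a nucleoporin gene telomeric of ABL1, had 1 etoposide, 1 genistein, 1 mitoxantrone, 10 p-benzoquinone and 3 DMSO regions over 109 kb.

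The second question was how each poison stood against DMSO in the stretch, after scaling each list to its number of regions on the autosomes and X. The log2 ratio of etoposide over DMSO was -0.11 (95% interval -0.80 to 0.56), and that of genistein over DMSO was -1.68 (-2.45 to -0.95). For mitoxantrone over DMSO it was -2.0 (-3.20 to -0.97), and for p-benzoquinone over DMSO 0.36 (-0.15 to 0.88). The 4 ratios share the DMSO list. The intervals of genistein and mitoxantrone lay below 0, and those of etoposide and p-benzoquinone included 0. From 24 Mb to the end of the chromosome the etoposide ratio was -0.08, the genistein ratio -0.28, the mitoxantrone ratio -0.20 and the p-benzoquinone ratio 0.03.

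These ratios moved with the lowest value a list kept. In the stretch, 73.3% of etoposide and 69.1% of DMSO regions had a value under 4, against 0% of genistein and 0% of mitoxantrone regions and 34.1% of p-benzoquinone regions. On the rest of chromosome 22 the shares were 22.1% for etoposide and 34.7% for DMSO. With only values of at least 4 kept, 23 genistein, 9 mitoxantrone, 8 etoposide and 54 p-benzoquinone regions stood against 17 DMSO regions. The log2 ratio was then -0.53 for genistein (-1.495 to 0.47) and -0.85 for mitoxantrone (-2.20 to 0.40), whose intervals included 0. It was -0.59 for etoposide (-2.01 to 0.70) and 1.58 for p-benzoquinone (0.77 to 2.46), the only interval above 0. Each list has its own value scale, so a cut at 4 need not mean the same in each. The ratios with this cut are therefore not read as differences between treatments.

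The windows in which genistein or mitoxantrone stood lowest against DMSO lay mostly in this part of the chromosome. After scaling and with a pseudocount of 1, 17 of 143 chromosome 22 windows were at least 2-fold lower for genistein than for DMSO, and 14 of the 17 lay among the 21 windows from 18.75 to 24 Mb. For mitoxantrone it was 21 windows, 12 of them in that block. The block was chosen after its windows were seen, so these counts describe it and do not test it. Over the genome 1.97% of 11230 windows were past 2-fold lower for genistein and 3.13% for mitoxantrone. Etoposide had 11 lower windows on the chromosome, 3 of them in the block, beside 2.68% over the genome, and p-benzoquinone had 4 and 1, beside 3.58%. Windows at least 2-fold higher than DMSO were 5 of 21 in the block in the p-benzoquinone list, 1 in the etoposide list and 0 in both others. Over the genome the shares were 1.02% for p-benzoquinone, 2.07% for etoposide, 1.80% for genistein and 2.96% for mitoxantrone. The 5 p-benzoquinone windows began at 19.5, 20, 20.5, 21.25 and 21.5 Mb. With values of at least 4 the lower windows on the chromosome numbered 4 for genistein and 13 for mitoxantrone, and the higher windows for p-benzoquinone numbered 16.

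In the block before the stretch, from 18.75 to 22 Mb, p-benzoquinone regions outnumbered DMSO regions after scaling, with 416 against 215 and a log2 ratio of 0.74 (0.50 to 0.98). Genistein had 122 regions there (-1.24, with -1.57 to -0.91), mitoxantrone 74 (-0.93, with -1.33 to -0.54) and etoposide 120 (-0.08, with -0.41 to 0.25). Because the block was picked from these same counts, the intervals do not allow for that choice and are descriptive.

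The third question was what the input of the mitoxantrone list showed beside its regions. None of the 9 mitoxantrone regions in the stretch had an input of 0, against 27.3% of 1837 on the rest of chromosome 22 (25.3 to 29.4). With 9 regions, the share with input 0 could still be up to 33.6%. Mean input was 0.732 in the stretch and 0.399 on the rest of the chromosome, and the medians were 0.47 and 0.23. Among regions with an input above 0 the median was 0.47 in both. From 18.75 to 24 Mb the 90 regions had a mean input of 0.906, 7.78% were at 0 (3.18 to 15.4) and 41.1% had an input of at least 0.9. On chromosome 22 outside that block the 1756 regions had a mean of 0.375, 28.2% at 0 and 11.4% with at least 0.9. Input per region was thus higher in the block, where regions were fewer.

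**Figure D3:**
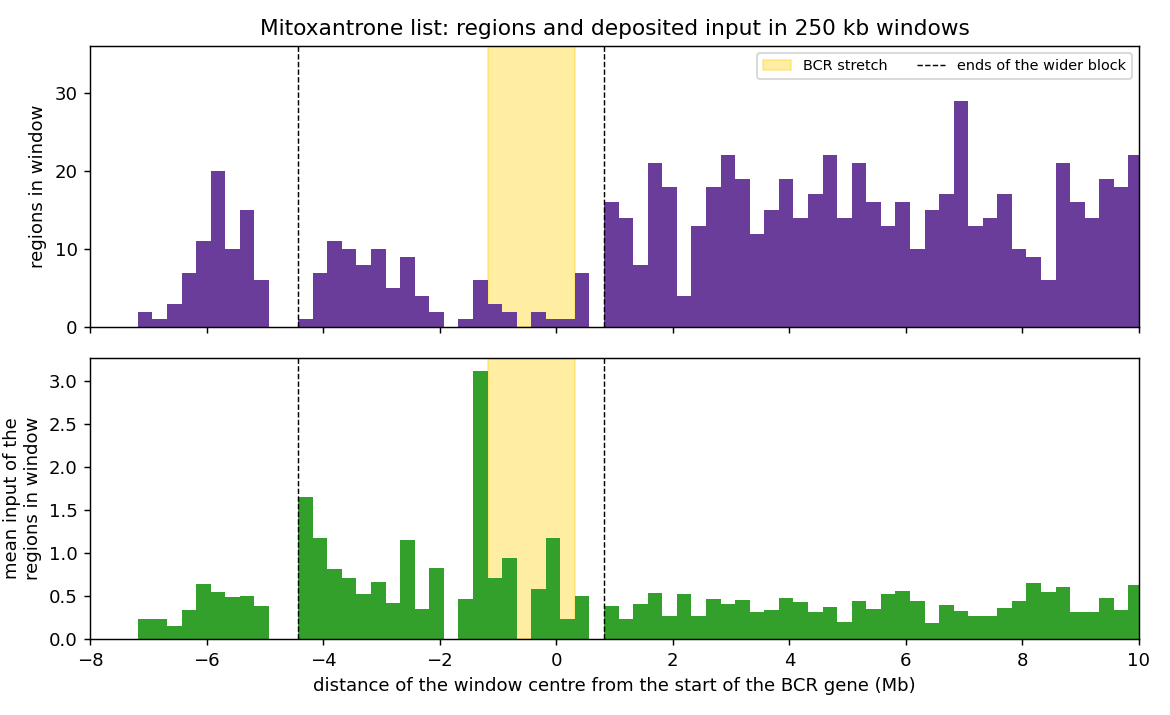
Mitoxantrone regions per 250 kb window (upper panel) and the mean deposited input of those regions (lower panel) against the distance of the window centre from the start of the BCR gene in Mb; windows with no region have no bar. The highest input bar, 3.11, is the window just centromeric of the stretch, which held 6 regions.

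The window with the highest mean input lay next to the stretch, from 21.75 to 22 Mb, with a mean of 3.11 over 6 regions. Of 10853 windows of the genome with at least 5 regions, it was the only one to reach that mean. Its regions included some in PPM1F (a phosphatase gene), in TOP3B and in the pseudogene PRAMENP. TOP3B, which encodes topoisomerase III beta, held the region with the highest mitoxantrone value of the chromosome, 172.16 with an input of 5.44, at chr22:21981269-21981485. The other TOP3B region had a value of 45.68 and an input of 2.36. Among chromosome 22 windows with at least 5 regions, the next in order, from 19 to 19.25 Mb and from 20.5 to 20.75 Mb, had means of 1.18 and 1.15 and also lay in the block.

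The 9 mitoxantrone regions of the stretch had inputs between 0.23 and 1.42. The BCR region, with a value of 8.10, had an input of 0.23, and the RSPH14 region, with a value of 19.77, had 1.18. The lambda locus regions had inputs of 0.47, 0.47, 1.18, 1.42, 0.47 and 0.94 from the centromeric end to the telomeric end. In the whole list the lowest ratio of value to input was 16.04, in 157315 regions with an input above 0. A region with a higher input therefore needed a higher value to be listed, and median value was 19.12 in the stretch and 12.96 on the rest of the chromosome. The part of this limit in the lower number of regions was not tested. The other 4 lists carry no input.

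Library parts gave a closer view of the drop. Each list's low values fall on steps, as whole read numbers times a factor do, and regions were assigned to steps after the data were seen. Only values under 12 were assigned, so the ratio of a part covers low values alone. Steps above 0.3 are called coarse and steps under 0.25 fine. The drop was present in every coarse part and smaller or absent in the fine ones. In the coarse part of the etoposide list 3 regions lay in the stretch, 0.0892 of the density on the rest of the chromosome (0.0184 to 0.261). The coarse genistein parts had 4 and 3 regions in the stretch, with ratios of 0.154 (0.0418 to 0.396) and 0.0932 (0.0192 to 0.273). The mitoxantrone part had 3, with 0.0970 (0.0200 to 0.285), and the coarse DMSO part had 6, with 0.168 (0.0615 to 0.367). The 5 intervals overlap, and the coarse DMSO part is not told apart from the coarse poison parts.

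The fine parts stood elsewhere. The fine etoposide parts had 11 and 10 regions in the stretch, with ratios of 1.22 (0.601 to 2.22) and 2.04 (0.957 to 3.88). The fine p-benzoquinone parts had 15 and 42, with 0.598 (0.333 to 0.993) and 0.442 (0.318 to 0.599), and the fine DMSO part had 44, with 0.833 (0.603 to 1.12). So the ratio of the whole etoposide list, 0.434, lay between a coarse part far below 1 and fine parts whose intervals include 1. By the scan, the interval of the coarse parts began between 18.00 and 18.13 Mb and ended between 23.60 and 24.10 Mb, for poisons and DMSO alike. From 18.75 to 24 Mb the coarse parts had 0.157 to 0.292 of the density from 24 to 30 Mb, and the fine parts 0.542 to 3.14. Which library a part came from, and whether the steps follow depth, amplification or the run, was not tested. Of the values in the stretch, 24 of 30 were assigned to a part for etoposide, 7 of 23 for genistein, 3 of 9 for mitoxantrone, 57 of 84 for p-benzoquinone and 50 of 57 for DMSO. Values of 12 or more, left out of every part, numbered 2 for etoposide, 16 for genistein, 6 for mitoxantrone, 16 for p-benzoquinone and 4 for DMSO. Most genistein and mitoxantrone values of the stretch are thus in no part, and how this shifts their ratios was not tested.

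**Figure D4:**
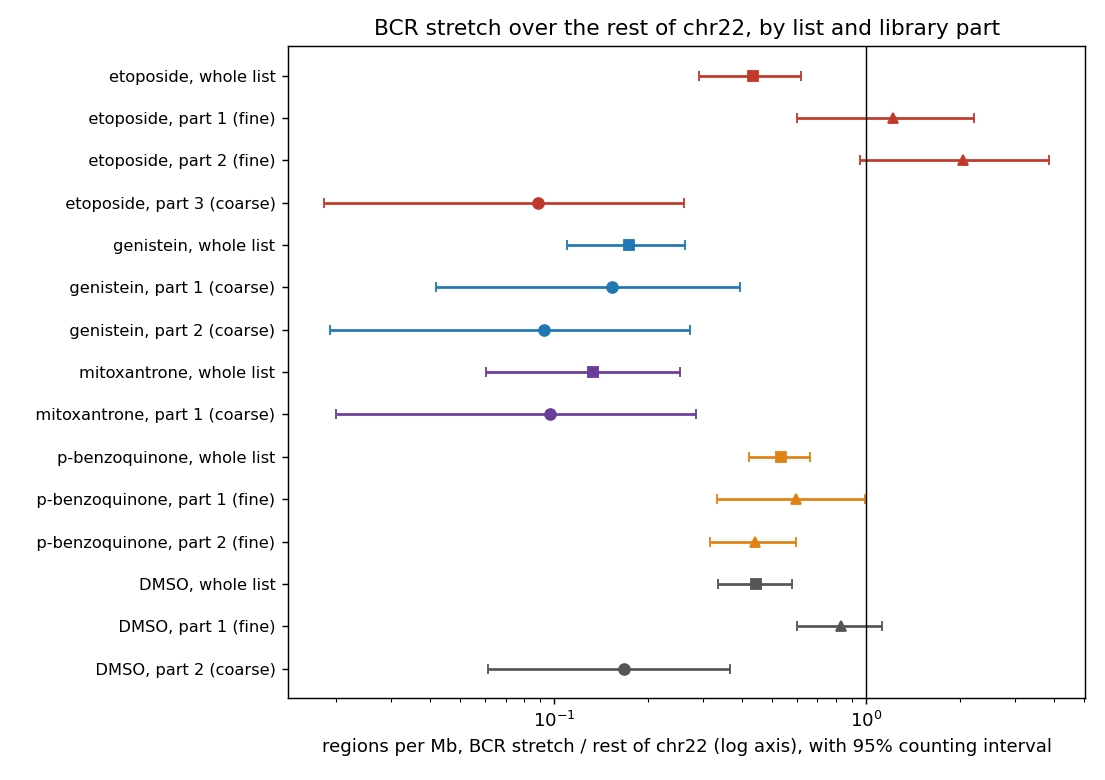
Density of the BCR stretch over the rest of chromosome 22 on a log axis, for each whole list (squares) and each coarse (circles) or fine (triangles) library part, with 95% counting intervals. The coarse parts lie between 0.0892 and 0.168, and the fine parts between 0.442 and 2.04. Parts hold values under 12 only.

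The regions in the stretch were also narrower in every list but genistein, and the block before it had part of this trait. In the etoposide list 50.0% of the 30 regions were under 60 bp (31.3 to 68.7), against 4.36% of 1880 on the rest of chromosome 22. The share was 55.6% of the 9 mitoxantrone regions (21.2 to 86.3), against 1.58% on the rest of the chromosome. For p-benzoquinone it was 21.95% of 82 (13.6 to 32.5) in the stretch and 2.34% on the rest, and for DMSO 40.0% of 55 (27.0 to 54.1) and 4.42%. Genistein stood apart, with 1 narrow region of 23, 4.35% (0.110 to 21.9), and 1.29% on the rest of the chromosome, a difference within counting error. Reads were 50 bases long, per the labels' protocol, and their part in these widths was not tested. Median widths in the stretch were 60.5 bp for etoposide, 150 bp for genistein, 54.0 bp for mitoxantrone, 127 bp for p-benzoquinone and 71.0 bp for DMSO, and those on the rest of the chromosome lay between 151 and 159 bp.

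**Figure D5:**
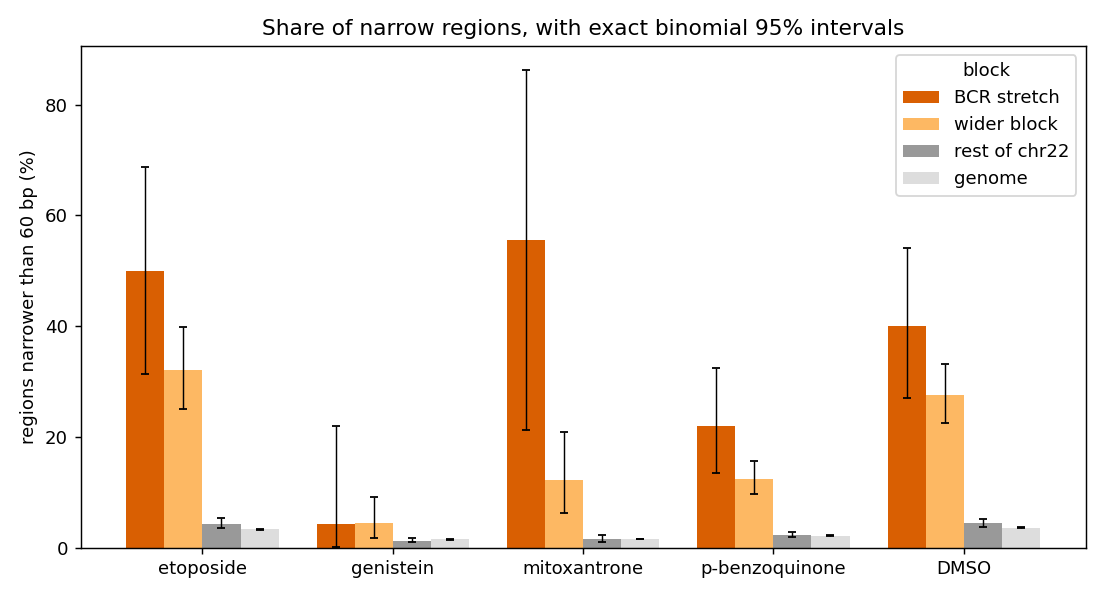
Share of regions narrower than 60 bp in percent (vertical axis) for each list (horizontal axis) in the BCR stretch, in the wider block from 18.75 to 24 Mb, on the rest of chromosome 22 outside the stretch and over the genome, with exact binomial 95% intervals. The share in the stretch is between 21.95% and 55.6% in 4 lists and 4.35% in the genistein list.

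Few places in the genome had as many narrow regions. Of 1.5 Mb windows with at least 5 regions, 0.158% of 1897 reached the etoposide share of the stretch, 2.51% of 1909 the genistein share and 0% of 1899 the mitoxantrone share. For p-benzoquinone it was 0.21% of 1903 windows and for DMSO 0.0525% of 1903. The 1 DMSO window was the chromosome 22 window from 21 to 22.5 Mb, which overlaps the stretch. From 23.5 to 24 Mb none of 12 etoposide, 10 genistein, 7 mitoxantrone, 24 p-benzoquinone and 13 DMSO regions was under 60 bp. In the p-benzoquinone list the narrow regions of the stretch had a lower median value than the wide ones, 2.58 against 7.50. In the mitoxantrone list the narrow ones had the higher median, 19.12 against 15.72.

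Values in the stretch differed from the rest of the chromosome in opposite ways. The median value was 2.72 in the stretch and 7.12 on the rest of chromosome 22 for etoposide, and 2.99 and 5.99 for DMSO. It was 16.26 in the stretch and 12.54 on the rest for genistein, 19.12 and 12.96 for mitoxantrone, and 5.85 and 5.23 for p-benzoquinone. High single values occurred all the same, with 52.64 for etoposide at chr22:22330804-22330987 and 47.71 for DMSO at chr22:22663064-22663213, both in the lambda locus. The highest mitoxantrone value, 38.26 at chr22:22205917-22206051, lay there too.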

How the data were processed

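Each treatment had 1 list of regions. The submitters' processing notes name hg38, Bowtie2 2.1.0 and SAMtools 0.1.19, and no source used here gives the region caller or its threshold. The score of each region was deposited by the authors with no stated unit, and where a region carried several values the highest was used. For the mitoxantrone list the authors also deposited an input signal, a log2 of value over input and, where input was 0, a p-value. Library depths are unknown.

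Genistein entries that overlapped were joined (3672 to 3602 on chromosome 22). A region belonged to the window of its midpoint. Ratios carry exact Poisson or binomial 95% intervals. Steps were matched for values under 12, within 0.025 below and 0.006 above a whole multiple, and the number of steps per list was set by hand. Genes and their starts came from RefSeq tables of GRCh38.p14, which give neither exons nor introns. The named genes were all protein-coding genes of the stretch, those at the boundaries, 6 gene lists, the 5 genes with most regions, ABL1 and NUP214. A few genes named by these rules are not reported here. The members, lists and alternatives were chosen with earlier results of these data known. The scan and the steps were tested on simulated data. The simulated drop was even and close to the one found, with no long empty intervals, so boundaries at such intervals were not tested. Versions were Python 3.11.15, scipy 1.17.1, pandas 2.3.3, numpy 2.4.6 and matplotlib 3.10.9.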

Additional observations from a re-analysis of the deposited data

Results flagged for a closer look

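Sequences assigned to chromosome 22 but outside its assembled length also carried regions, which no comparison above uses. They held 10 etoposide regions on 3 sequences, 10 genistein regions on 5, 9 mitoxantrone regions on 4, 27 p-benzoquinone regions on 5 and 20 DMSO regions on 5. All sequences listed outside the assembled chromosomes together held 97 etoposide, 151 genistein, 61 mitoxantrone, 237 p-benzoquinone and 201 DMSO regions.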

How the results depend on the processing

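No paired analysis was possible because each treatment is 1 pooled list, and leaving out a replicate was not possible for the same reason. Of 157 repeated values, 81 stayed within the interval or within 1.5 times the first value, 63 moved and 13 changed direction. Causes were not tested. Counts under 10 in the stretch limit all mitoxantrone ratios, and low values, which are rare in the genistein and mitoxantrone lists, limit every ratio over DMSO.

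Chromosome 22 over the genome mean was 0.812 for etoposide and 0.859 for DMSO with values of at least 4. With callable sequence from 10 kb bins the etoposide ratio was 0.905, that of genistein 0.751, that of mitoxantrone 0.788 and that of DMSO 0.951. For p-benzoquinone it passed 1, at 1.00 with values of at least 4, 1.00 with covered bases and 1.03 with 10 kb bins. The stretch over the rest of the chromosome was 0.148 for etoposide and 0.211 for DMSO with values of at least 4. With covered bases it was 0.209 for etoposide, 0.401 for p-benzoquinone and 0.239 for DMSO. Against flanks of 1.5 Mb it was 0.670 for etoposide, 0.324 for genistein and 0.685 for DMSO. By library part it was 1.22, 2.04 and 0.0892 for etoposide, 0.0932 for the second genistein part, and 0.833 and 0.168 for DMSO.

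The run of low windows was 2.75 Mb for etoposide and 3 Mb for DMSO with values of at least 4, and 2 Mb for etoposide, 1.5 Mb for p-benzoquinone and 3.5 Mb for DMSO in 500 kb windows. In 100 kb windows it was 1.6 Mb for mitoxantrone and 0.4 Mb for p-benzoquinone. On the moved grid it was 1.5 Mb for etoposide and 1.75 Mb for DMSO, and the p-benzoquinone run, at 0.5 Mb near its first length, lay from 23.375 to 23.875 Mb and so did not overlap the first. At 0.7 of the median it was 2.75 Mb for etoposide, 1.25 Mb for p-benzoquinone and 3.5 Mb for DMSO, and with the genome median 1.25 Mb for etoposide and 1.75 Mb for DMSO.

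The scan over all of chromosome 22 returned the whole callable arm as a dense interval of 34.21 Mb for etoposide, 34.18 Mb for p-benzoquinone and 34.09 Mb for DMSO, and added the empty arm to the drop for genistein (13.32 Mb) and mitoxantrone (13.3 Mb). Searched from 20 to 26 Mb the drop was 2.98 Mb for etoposide, 3.76 Mb for genistein and 3.35 Mb for mitoxantrone. With empty bins left out the etoposide drop was 3.46 Mb, the genistein drop 3.45 Mb, the mitoxantrone drop 3.55 Mb and the DMSO drop 1.88 Mb, and p-benzoquinone turned to a dense interval of 10.35 Mb. With values of at least 4, p-benzoquinone gave a dense interval of 13.32 Mb and DMSO a drop of 5.85 Mb. The fine etoposide parts gave dense intervals of 3.3 and 6.58 Mb and the fine DMSO part one of 13.06 Mb, while the coarse DMSO part gave a drop of 5.53 Mb.

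Median mitoxantrone input of the stretch over the rest of the chromosome was 1 among inputs above 0 and 2.04 with inputs of 0 kept. The log2 ratio over DMSO with values of at least 4 was -0.53 for genistein and -0.85 for mitoxantrone, and that of p-benzoquinone was 1.58, or 0.89 with covered bases. In 500 kb windows, of which there are fewer, low windows numbered 14 for etoposide, 15 for genistein, 15 for mitoxantrone, 10 for p-benzoquinone and 14 for DMSO. Windows past 2-fold lower than DMSO then numbered 3 in the etoposide list, 9 in the genistein list and 9 in the mitoxantrone list, and those past 2-fold higher 1, 0, 0 and, in the p-benzoquinone list, 1. With values of at least 4, lower windows numbered 4 for genistein and 13 for mitoxantrone, and higher ones 16 for p-benzoquinone.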
